A study of Mus musculus with 7 samples.

Results

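A set of 45 genes of skeletal muscle was followed across the arrays: genes of the contractile apparatus of fast and slow fibres, of calcium handling, of muscle energy supply, and a smaller number of muscle kinases, regulators and genes known for muscle stress or regeneration. They were chosen by name, with earlier results of these data known, and each was read from the probe set that names it alone. All 45 were measured, each by 1 such probe set, among 19937 genes in all. The groups were Iqgap1 knockout at day 6 (2 arrays), wild type at day 6 (2 arrays), knockout at day 0 (2 arrays) and wild type at day 0 (1 array), 7 arrays in all. Iqgap1 encodes a scaffold protein that binds kinases of the Ras-MAP kinase cascade. All mice were of a mixed C57BL/6 and 129 background, and topical 4OHT (4-hydroxytamoxifen, a drug that switches on tamoxifen-dependent proteins) is the agent given for every array, day 0 included. The labels name the samples only as mouse tissue and give no word on whether replicate arrays stand for different mice; the p-values given here therefore reflect only how far these arrays spread, which may be technical. The labels also do not say how the knockout was made.

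Skeletal muscle fibres contract when myosin heads, built from heavy and light chains, pull on actin filaments within the sarcomere. Troponin and tropomyosin on the actin filament hold the heads off until calcium, released from the sarcoplasmic reticulum by the ryanodine receptor, binds troponin C; the SERCA pump then returns the calcium to its store, where calsequestrin holds it. Fast and slow fibres carry different genes for most of these parts, and in the mouse a sheet of striated muscle lies beneath the skin of the trunk.

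Values are log2 RMA expression values (RMA is a standard summary of Affymetrix probes), differences are differences of these values, and tests are limma tests adjusted over all 19937 genes with a threshold of 0.05. As a yardstick for weak signal, the level below which 95% of 1027 olfactory receptor genes lay was taken on each array; it ran from 4.62 to 5.28 and is called the background level here. Iqgap1 itself read 8.58 and 8.67 in day 6 knockout arrays and 10.11 and 10.59 in day 6 wild-type arrays, and 9.02 and 8.99 in day 0 knockout arrays and 9.94 in the day 0 wild-type array. All knockout arrays were thus below all wild-type arrays, though its limma test did not pass at day 6 (adjusted p = 0.503) and passed at day 0 (adjusted p = 0.0461); which part of the gene the probe set reads was not used here. Xist, which coats the inactive X chromosome of females, read 10.30 on wild-type day 6 replicate 1, 11.15 on the day 0 wild-type array and 3.55 to 4.03 on the 5 remaining arrays. The spread of values over all genes was also lowest on those arrays (SD 2.265 and 2.295, against 2.353 to 2.417 on the other 5). At day 0, male knockout arrays are thus compared with a single female wild-type array. Genotype there cannot be told apart from sex (the Xist split), nor from anything particular to a single array. Krt14, a keratin of basal epidermis, read 11.71 to 12.89 on all 7 arrays, far above the background level, and so did many of the muscle genes below. In bulk tissue, fewer muscle cells and less RNA per muscle cell cannot be told apart.

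The sequences just upstream of 6 genes that differed widely between groups are shown here. The expression results do not rest on these sequences. Mylk4, Pvalb, Mstn and Casq1 fell with day in both genotypes, and Musk and Ankrd1 were high in both knockout day 0 arrays and low in the day 0 wild-type array. Each run holds the 250 bases before the annotated start of the gene, 5′ to 3′ on the strand of the gene, from RefSeq (GRCm38.p6). Capitals mark an E box, the binding motif of the MyoD family of myogenic factors, searched as CAGCTG or CACCTG on either strand, and the MEF2 motif, named for another family of muscle transcription factors. The windows are chr13:32783965-32784214 on the minus strand for Mylk4, chr15:78206401-78206650 on the minus strand for Pvalb, chr1:53061390-53061639 on the plus strand for Mstn, chr1:172219896-172220145 on the minus strand for Casq1, chr4:58285712-58285961 on the plus strand for Musk and chr19:36119845-36120094 on the minus strand for Ankrd1.
Mylk4: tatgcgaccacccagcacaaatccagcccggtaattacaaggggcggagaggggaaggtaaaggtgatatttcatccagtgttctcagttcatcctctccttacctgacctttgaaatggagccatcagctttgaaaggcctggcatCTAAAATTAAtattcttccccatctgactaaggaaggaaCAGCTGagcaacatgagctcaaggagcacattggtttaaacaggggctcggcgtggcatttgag
Pvalb: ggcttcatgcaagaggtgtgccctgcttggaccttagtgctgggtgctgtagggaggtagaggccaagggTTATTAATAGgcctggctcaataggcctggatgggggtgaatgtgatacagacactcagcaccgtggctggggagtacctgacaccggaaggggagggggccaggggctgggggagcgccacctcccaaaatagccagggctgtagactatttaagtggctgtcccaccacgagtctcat
Mstn: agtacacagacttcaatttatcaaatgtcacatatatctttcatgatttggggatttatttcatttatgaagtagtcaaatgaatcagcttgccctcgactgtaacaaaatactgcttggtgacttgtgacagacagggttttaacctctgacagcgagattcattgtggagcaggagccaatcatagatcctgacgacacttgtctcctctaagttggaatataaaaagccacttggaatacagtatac
Casq1: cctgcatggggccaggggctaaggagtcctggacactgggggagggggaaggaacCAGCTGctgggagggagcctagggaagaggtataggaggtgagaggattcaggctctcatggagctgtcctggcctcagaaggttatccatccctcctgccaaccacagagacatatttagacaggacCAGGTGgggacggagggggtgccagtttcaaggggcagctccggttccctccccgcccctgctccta
Musk: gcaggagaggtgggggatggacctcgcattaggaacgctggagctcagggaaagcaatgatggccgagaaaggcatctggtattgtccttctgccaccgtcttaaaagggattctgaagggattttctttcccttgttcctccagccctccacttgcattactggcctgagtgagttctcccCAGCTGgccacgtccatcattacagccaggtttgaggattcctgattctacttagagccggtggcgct
Ankrd1: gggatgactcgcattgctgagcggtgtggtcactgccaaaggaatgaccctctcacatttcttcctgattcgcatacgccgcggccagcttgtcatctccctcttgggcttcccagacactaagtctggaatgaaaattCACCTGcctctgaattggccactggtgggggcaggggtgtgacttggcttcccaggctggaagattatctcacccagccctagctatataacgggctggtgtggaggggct

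Mylk4 held both kinds of motif, with the MEF2 motif starting 103 bases and the E box 64 bases before the gene. Pvalb held a MEF2 motif starting at 180 bases and no E box, and Casq1 had E boxes at 195 and 67 bases and no MEF2 motif. Musk had an E box at 68 bases and Ankrd1 one at 111 bases. Mstn held neither. Upstream sequence was matched for 35 of the 45 genes; not matched were Actn3, Tnnt3, Tnni2, Myoz1, Neb, Myom2, Alpk2, Hjv, Xirp1 and Myod1. An E box of either kind stood in 21 of the 35 (60.0%), against 27.4% of all 27025 upstream windows of the same length. The form CAGCTG was found in 42.9% of the 35 and 12.8% of all, and CACCTG in 22.9% and 17.1%; a window may hold both. The MEF2 motif was found in 7 of the 35 (20.0%, against 3.01% of all), namely Myh1, Myh4, Ttn, Casq2, Pvalb, Mylk4 and Myh8. The CArG box, the motif of serum response factor, was found in 4 (11.4%, against 1.4% of all): Myh4, Myl3, Acta1 and Myom1. TATAAA, searched on the printed strand alone, was found in 5 (14.3%, against 8.12% of all). These counts describe letters and were not tested, and the genes with a motif included genes that passed the day test and genes that did not.

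With day, the muscle genes moved down. Over both genotypes, 21 of the 45 fell at day 6 against day 0 and 0 rose, while 5.62% of all genes fell and 5.85% rose. The median log2 difference of the 45 was -1.74, against 0.06 for all genes. In 21 of the 45 (46.7%), all 4 day 6 arrays lay below all 3 day 0 arrays, which held for 9.66% of all genes; in 0 of the 45 did they all lie above, which held for 11.9%. By type, 9 of 11 fast fibre genes fell, 0 of 7 slow fibre genes, 3 of 8 sarcomere genes shared by fibre types, 3 of 5 calcium handling genes, 3 of 3 energy and oxygen genes, 3 of 6 kinases and regulators, and 0 of 5 stress and regeneration genes. Of the 21 that fell, 14 also passed under each of 17 alternative ways of processing or of leaving out arrays. The other 7 were Atp2a1, Des, Mb, Mybpc2, Myh4, Myom1 and Ttn. The count was 14 without either knockout day 0 replicate, when 3.65% and 5.68% of all genes passed in either direction. It was 32 without the wild-type day 0 array (16.3% of all genes) and 36 without both arrays with Xist signal (20.2% of all genes), against 21 and 11.5% with all arrays. Without that day 0 array, the wild-type arrays carry no information on the day change.

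**Figure D1:**
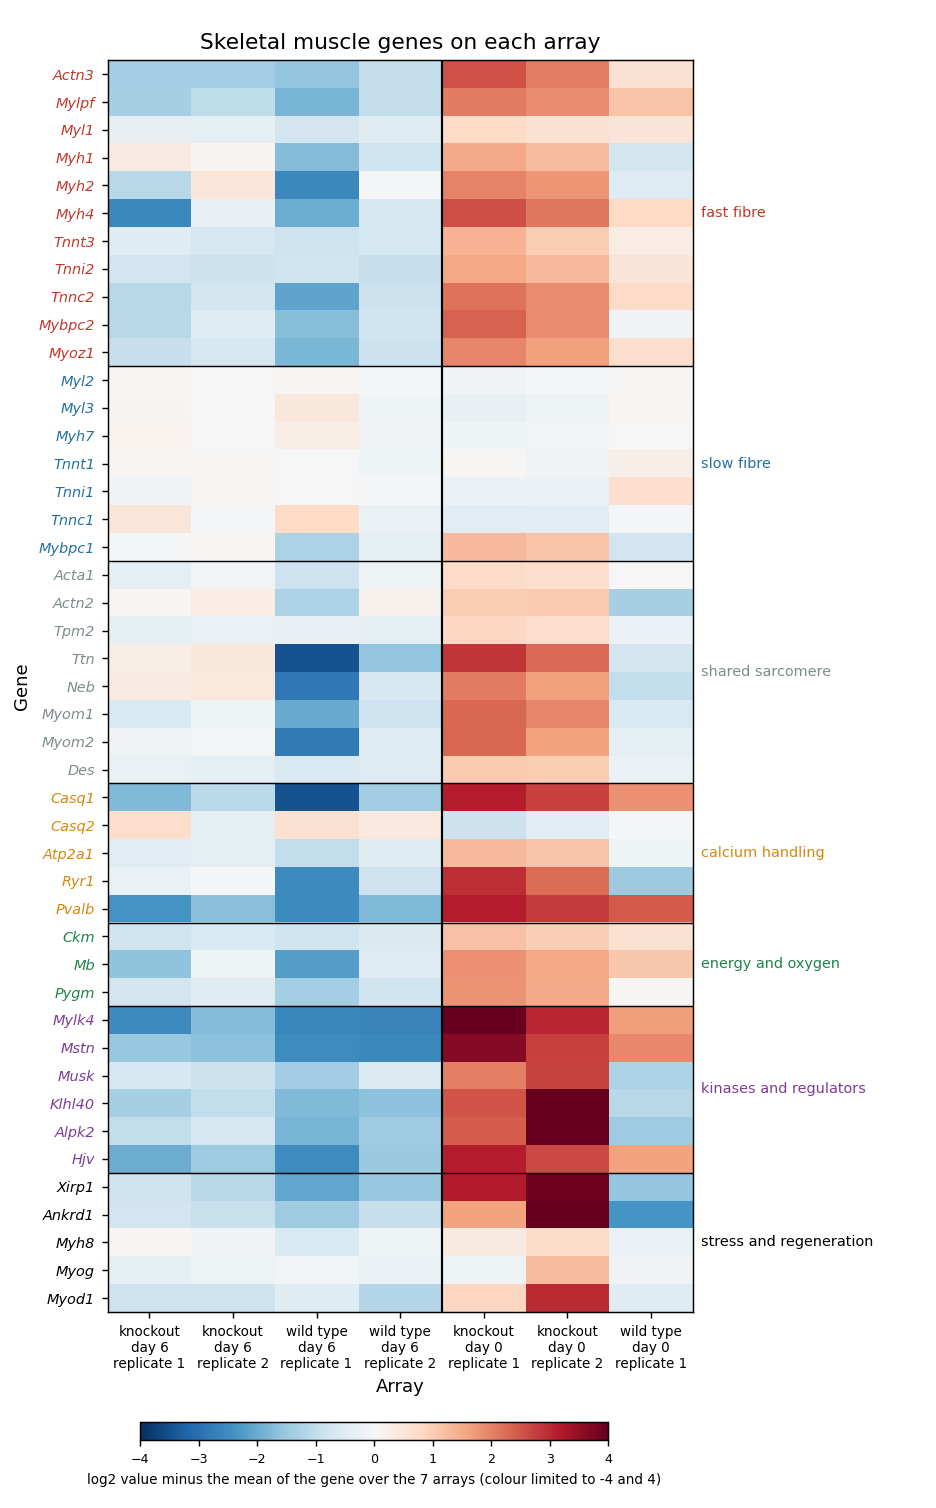
Log2 value of each of the 45 muscle genes (down the page, by type) on each of the 7 arrays (across), minus the mean of the gene over the 7 arrays; red is above and blue below that mean, limited to -4 and 4. Most fast fibre genes, with Ckm, Mb, Pvalb and Casq1, are blue on the 4 day 6 arrays and red on the 3 day 0 arrays, whereas Xirp1, Ankrd1, Musk, Klhl40 and Alpk2 are red on the knockout day 0 arrays and blue on the day 0 wild-type array.

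Among the fast fibre genes, Mylpf, the regulatory light chain of fast myosin, read 7.88 and 8.20 in day 6 knockout arrays and 7.35 and 8.26 in day 6 wild-type arrays, against 11.28 and 11.09 in day 0 knockout arrays and 10.35 in the day 0 wild-type array. Every day 6 array lay more than 2 log2 units below every day 0 array, and the fitted difference was -2.90 ± 0.26 (SE; limma adjusted p = 0.00202). Its partner Myl1, the essential light chain, read 11.20 and 11.13 in day 6 knockout arrays and 10.79 and 11.03 in day 6 wild-type arrays, against 12.31 and 12.13 in day 0 knockout arrays and 12.04 in the day 0 wild-type array. Here too the days did not overlap, with a smaller difference of -1.08 ± 0.12 (SE; limma adjusted p = 0.00451). Tnni2, fast troponin I, which blocks contraction when calcium is low, read 9.61 and 9.52 in day 6 knockout arrays and 9.59 and 9.44 in day 6 wild-type arrays. At day 0 it read 11.92 and 11.67 in knockout and 10.88 in wild type, a difference with day of -1.88 ± 0.20 (SE; limma adjusted p = 0.00375). The genotypes interleaved at day 6, and at day 0 the wild-type array lay below both knockout arrays.

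Fast troponin T (Tnnt3), which ties the troponin complex to tropomyosin, read 10.58 and 10.39 in day 6 knockout arrays and 10.23 and 10.38 in day 6 wild-type arrays, against 12.46 and 12.09 in day 0 knockout arrays and 11.36 in the day 0 wild-type array. Fast troponin C (Tnnc2), the calcium sensor, read 8.90 and 9.29 in day 6 knockout arrays and 7.91 and 9.17 in day 6 wild-type arrays, against 12.20 and 11.91 in day 0 knockout arrays and 10.78 in the day 0 wild-type array. All 3 fast troponin genes thus fell, Tnnt3 by 1.49 and Tnnc2 by 2.67 on the log2 scale. Myoz1, a Z disc protein that binds calcineurin, read 8.84 and 9.09 in day 6 knockout arrays and 7.96 and 8.91 in day 6 wild-type arrays, against 11.72 and 11.43 in day 0 knockout arrays and 10.48 in the day 0 wild-type array (difference -2.38 ± 0.26, SE; limma adjusted p = 0.00385). Actn3, the alpha-actinin of fast Z discs, read 8.63 and 8.62 in day 6 knockout arrays and 8.43 and 9.02 in day 6 wild-type arrays, against 12.54 and 12.02 in day 0 knockout arrays and 10.60 in the day 0 wild-type array. Its difference was -2.95 ± 0.39 (SE; limma adjusted p = 0.00667), a 7.7-fold lower level at day 6. The wild-type day 0 array was about midway between the day 6 arrays and the knockout day 0 arrays for Actn3.

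The fast myosin heavy chain genes Myh1, Myh2 and Myh4, like the perinatal Myh8, are close paralogs, and probes common to them would blur their separate values. Myh4, the heavy chain of the fastest fibres, fell by 3.12 ± 0.65 (SE) on the log2 scale (limma adjusted p = 0.0288), yet its day 6 arrays spread widely, from 7.24 to 9.53 in knockout and from 7.83 to 9.17 in wild type. Myh1 read 11.03 and 10.81 in day 6 knockout arrays and 8.97 and 9.89 in day 6 wild-type arrays, against 12.22 and 11.95 in day 0 knockout arrays and 9.96 in the day 0 wild-type array. For Myh1 both knockout day 6 arrays lay above the wild-type array of day 0, and its difference with day of -0.91 ± 0.26 (SE) did not pass (limma adjusted p = 0.0706). Myh2, the heavy chain of oxidative fast fibres, ranged from 6.14 in wild-type replicate 1 to 9.21 in knockout replicate 2 at day 6 and did not pass (limma adjusted p = 0.192). Mybpc2, the fast form of the myosin-binding protein that trims cross-bridge cycling, read 8.48 and 9.11 in day 6 knockout arrays and 7.89 and 8.80 in day 6 wild-type arrays, against 11.96 and 11.50 in day 0 knockout arrays and 9.46 in the day 0 wild-type array, and fell by 2.20 ± 0.44 (SE; limma adjusted p = 0.025).

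The slow fibre genes gave no comparable change. Myh7, the slow heavy chain, and Myl2, a slow light chain, stood at or under the background level on all 7 arrays, so a fall in them could not have been seen. Tnnc1 read 5.45 and 4.92 in day 6 knockout arrays and 5.77 and 4.70 in day 6 wild-type arrays, against 4.52 and 4.56 in day 0 knockout arrays and 4.92 in the day 0 wild-type array. At or under the background level on 4 arrays, Tnnc1 differed by 0.51 ± 0.28 (SE; limma adjusted p = 0.304). Myl3 read 5.32 and 5.24 in day 6 knockout arrays and 5.67 and 5.06 in day 6 wild-type arrays, against 4.94 and 5.02 in day 0 knockout arrays and 5.30 in the day 0 wild-type array. Tnnt1 lay between 4.83 and 5.24 on all 7 arrays. Slow troponin I (Tnni1) read 5.33 and 5.52 in day 6 knockout arrays and 5.44 and 5.40 in day 6 wild-type arrays, against 5.21 and 5.18 in day 0 knockout arrays and 6.14 in the day 0 wild-type array, so that the wild-type day 0 array was the highest.

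Mybpc1, usually called the slow form of myosin-binding protein C, was the slow fibre gene with clear signal. It read 10.14 and 10.22 in day 6 knockout arrays and 8.91 and 9.78 in day 6 wild-type arrays, against 11.47 and 11.31 in day 0 knockout arrays and 9.42 in the day 0 wild-type array. Knockout arrays were higher than wild-type arrays on both days, and the days overlapped within wild type. The difference with day of -0.75 ± 0.30 (SE) did not pass over both genotypes (limma adjusted p = 0.168), while the fall of 1.21 ± 0.28 (SE) within knockout did (limma adjusted p = 0.0304).

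Of the sarcomere genes shared by fibre types, titin (Ttn), the giant spring that runs from Z disc to M band, read 9.59 and 9.79 in day 6 knockout arrays and 5.85 and 7.76 in day 6 wild-type arrays, against 12.19 and 11.59 in day 0 knockout arrays and 8.59 in the day 0 wild-type array. Within each genotype day 6 lay below day 0, but both knockout day 6 arrays exceeded the wild-type day 0 array. Its difference with day was -2.03 ± 0.44 (SE; limma adjusted p = 0.032). Myom1, which crosslinks myosin at the M band, read 7.46 and 7.84 in day 6 knockout arrays and 6.03 and 7.24 in day 6 wild-type arrays, against 10.35 and 10.00 in day 0 knockout arrays and 7.46 in the day 0 wild-type array. Desmin (Des), the intermediate filament that links neighbouring Z discs, read 11.01 and 10.92 in day 6 knockout arrays and 10.67 and 10.76 in day 6 wild-type arrays, against 12.33 and 12.30 in day 0 knockout arrays and 11.04 in the day 0 wild-type array. Myom1 fell by 1.85 ± 0.43 and Des by 0.94 ± 0.22 (SE) on the log2 scale, with limma adjusted p of 0.0406 and 0.0401, and in both the wild-type day 0 array lay close to the day 6 arrays.

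The 5 other shared genes did not pass over both genotypes. Skeletal actin (Acta1) read 11.83 and 12.07 in day 6 knockout arrays and 11.35 and 11.98 in day 6 wild-type arrays, against 12.94 and 12.89 in day 0 knockout arrays and 12.16 in the day 0 wild-type array (difference -0.78 ± 0.20, SE; limma adjusted p = 0.0502). Beta-tropomyosin (Tpm2) read 10.65 and 10.72 in day 6 knockout arrays and 10.70 and 10.61 in day 6 wild-type arrays, against 11.83 and 11.71 in day 0 knockout arrays and 10.75 in the day 0 wild-type array. For Acta1 and Tpm2 the days nevertheless did not overlap. Nebulin (Neb), the ruler of the thin filament, read 10.58 and 10.67 in day 6 knockout arrays and 7.38 and 9.60 in day 6 wild-type arrays, against 12.34 and 11.89 in day 0 knockout arrays and 9.27 in the day 0 wild-type array. Myom2 read 8.92 and 8.99 in day 6 knockout arrays and 6.23 and 8.55 in day 6 wild-type arrays, against 11.35 and 10.65 in day 0 knockout arrays and 8.65 in the day 0 wild-type array. Actn2, the alpha-actinin found in all fibres, read 11.00 and 11.23 in day 6 knockout arrays and 9.69 and 11.12 in day 6 wild-type arrays, against 11.97 and 11.99 in day 0 knockout arrays and 9.61 in the day 0 wild-type array. In Neb, Myom2 and Actn2 the wild-type replicates of day 6 differed from each other by more than 1 log2 unit, with replicate 1 the lower.

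Parvalbumin (Pvalb), the cytosolic calcium buffer that speeds relaxation of fast fibres, read 6.91 and 7.63 in day 6 knockout arrays and 6.75 and 7.55 in day 6 wild-type arrays, against 12.46 and 12.10 in day 0 knockout arrays and 11.76 in the day 0 wild-type array. The day 6 arrays of both genotypes covered the same range, far below all day 0 arrays, and the difference of -4.85 ± 0.27 (SE) was a 28.8-fold lower level at day 6 (limma adjusted p = 0.000401). Casq1, the calsequestrin of fast fibres, read 7.31 and 8.05 in day 6 knockout arrays and 5.59 and 7.69 in day 6 wild-type arrays, against 12.21 and 11.83 in day 0 knockout arrays and 10.91 in the day 0 wild-type array. This was a 19.9-fold lower level at day 6 (log2 difference -4.31 ± 0.48, SE; limma adjusted p = 0.00414). The SERCA1 pump gene Atp2a1 read 11.10 and 11.20 in day 6 knockout arrays and 10.55 and 11.07 in day 6 wild-type arrays, against 12.84 and 12.68 in day 0 knockout arrays and 11.37 in the day 0 wild-type array, a smaller fall of 1.19 ± 0.25 (SE; limma adjusted p = 0.0291).

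Ryr1, the calcium release channel, read 8.63 and 8.84 in day 6 knockout arrays and 6.35 and 8.06 in day 6 wild-type arrays, against 11.86 and 11.12 in day 0 knockout arrays and 7.43 in the day 0 wild-type array. The wild-type day 0 array lay between the wild-type replicates of day 6, and Ryr1 did not pass over both genotypes (limma adjusted p = 0.131). Casq2, the calsequestrin of slow fibres and heart, read 7.40 and 6.30 in day 6 knockout arrays and 7.29 and 7.08 in day 6 wild-type arrays, against 5.84 and 6.28 in day 0 knockout arrays and 6.62 in the day 0 wild-type array. Its difference with day was 0.70 ± 0.28 (SE) and did not pass (limma adjusted p = 0.163).

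Creatine kinase (Ckm), which regenerates ATP from phosphocreatine, read 10.90 and 11.09 in day 6 knockout arrays and 10.91 and 11.13 in day 6 wild-type arrays, against 12.88 and 12.70 in day 0 knockout arrays and 12.32 in the day 0 wild-type array. The 4 day 6 arrays lay close together whatever their genotype, and the difference with day was -1.60 ± 0.16 (SE; limma adjusted p = 0.00288). Pygm, the phosphorylase that frees glucose units from muscle glycogen, read 9.98 and 10.21 in day 6 knockout arrays and 9.34 and 9.91 in day 6 wild-type arrays, against 12.50 and 12.23 in day 0 knockout arrays and 10.78 in the day 0 wild-type array (limma adjusted p = 0.0105). Myoglobin (Mb), the oxygen store, read 8.37 and 9.81 in day 6 knockout arrays and 7.77 and 9.46 in day 6 wild-type arrays, against 11.80 and 11.52 in day 0 knockout arrays and 11.04 in the day 0 wild-type array. Mb fell by 2.52 ± 0.48 (SE; limma adjusted p = 0.0219), with replicate 1 lower than replicate 2 in each genotype at day 6.

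Mylk4, a kinase of the myosin light chain kinase family, read 4.22 and 5.01 in day 6 knockout arrays and 4.15 and 4.08 in day 6 wild-type arrays, against 11.59 and 9.80 in day 0 knockout arrays and 8.44 in the day 0 wild-type array. On 3 of the 4 day 6 arrays it stood at or under the background level. The fitted difference was -5.37 ± 0.54 (SE; limma adjusted p = 0.0029), whose size is not exact with day 6 values so low. Within wild type, where both day 6 arrays were under the background level, Mylk4 was at least 10.3-fold lower at day 6, with the background level of each array set in place of its value. Myostatin (Mstn), the secreted inhibitor of muscle growth, read 6.00 and 5.87 in day 6 knockout arrays and 5.01 and 4.94 in day 6 wild-type arrays, against 11.17 and 10.25 in day 0 knockout arrays and 9.44 in the day 0 wild-type array. Its replicates were tight within each day 6 group, and the difference was -4.65 ± 0.23 (SE; limma adjusted p = 0.000284). The wild-type day 6 values lay near the background levels of those arrays, 5.28 and 4.86, with replicate 1 under its level. The size of the fall in wild type is therefore not exact. Hemojuvelin (Hjv), a BMP co-receptor that skeletal muscle expresses, read 6.22 and 6.79 in day 6 knockout arrays and 5.69 and 6.72 in day 6 wild-type arrays, against 11.36 and 10.85 in day 0 knockout arrays and 9.80 in the day 0 wild-type array, an 18.3-fold lower level (limma adjusted p = 0.00155).

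**Figure D2:**
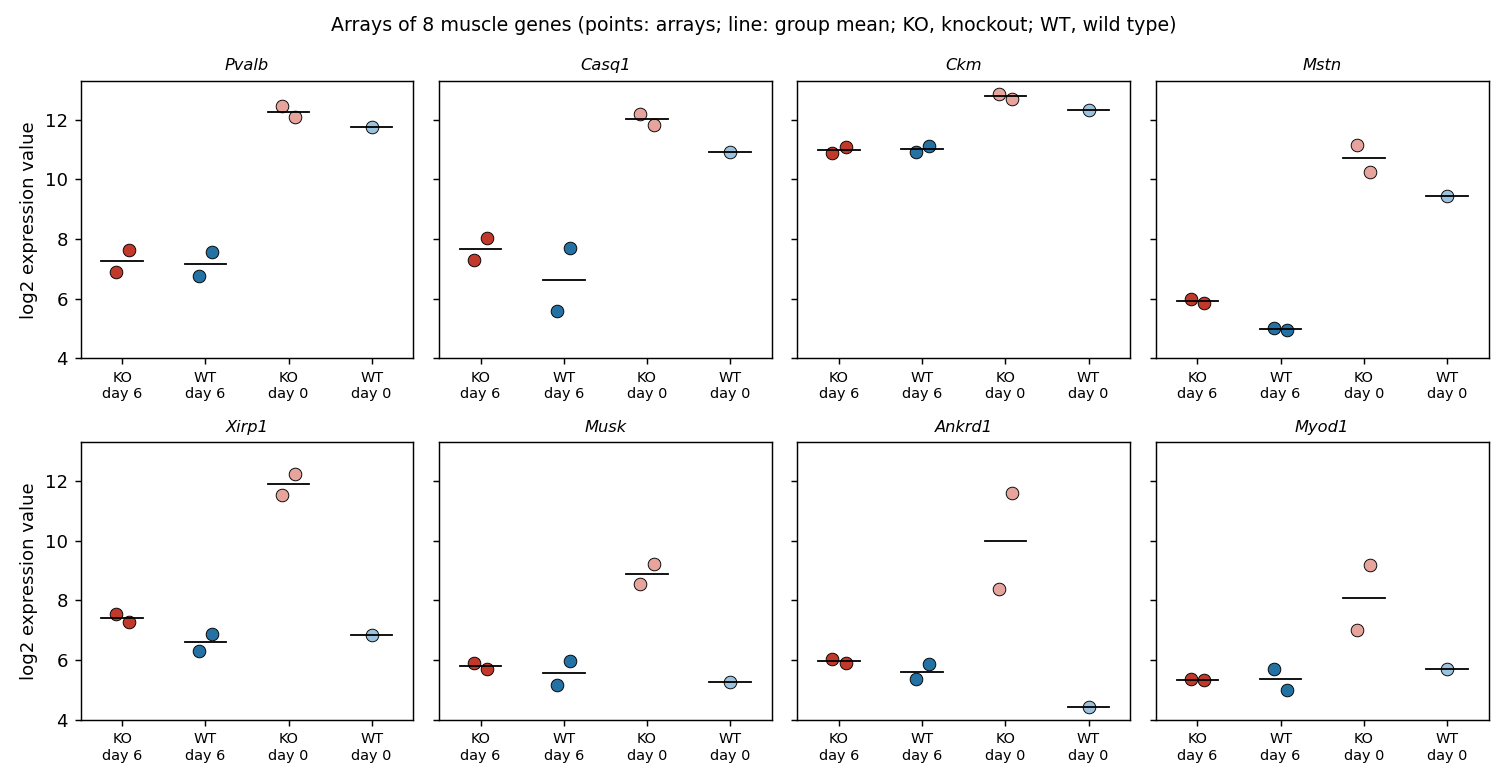
Log2 expression value (vertical axes) of 8 muscle genes on each array (points), with the mean of each group as a line, for knockout and wild type at day 6 and at day 0. In the upper row (Pvalb, Casq1, Ckm and Mstn) the day 0 arrays of both genotypes lie above all day 6 arrays; in the lower row (Xirp1, Musk, Ankrd1 and Myod1) the knockout day 0 arrays lie above the other 5 arrays, the wild-type day 0 array included.

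Another 5 genes took a different course, with high signal in both knockout day 0 arrays and low signal in the day 0 wild-type array. The knockout part of this course is not particular to them. Both knockout day 0 arrays lay above every other array in 37 of the 45 genes, and in 16.2% of all genes. A wild-type day 0 array far below both knockout day 0 arrays is not particular to them either. Ryr1 read 11.86 and 11.12 in knockout against 7.43 in wild type at day 0, and Myod1 7.01 and 9.18 against 5.69. Xirp1, an actin-binding protein of damaged and regenerating fibres, read 7.56 and 7.28 in day 6 knockout arrays and 6.31 and 6.88 in day 6 wild-type arrays, against 11.54 and 12.26 in day 0 knockout arrays and 6.84 in the day 0 wild-type array. Ankrd1, an ankyrin repeat protein induced by stretch and injury, read 6.03 and 5.90 in day 6 knockout arrays and 5.36 and 5.86 in day 6 wild-type arrays, against 8.39 and 11.59 in day 0 knockout arrays and 4.42 in the day 0 wild-type array. For Ankrd1 the wild-type day 0 array was the lowest of all 7 and under its background level. Musk, the receptor kinase that organises the neuromuscular junction, read 5.89 and 5.69 in day 6 knockout arrays and 5.15 and 5.98 in day 6 wild-type arrays, against 8.54 and 9.24 in day 0 knockout arrays and 5.26 in the day 0 wild-type array.

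Klhl40, a kelch protein that stabilises nebulin, read 5.61 and 5.97 in day 6 knockout arrays and 5.18 and 5.31 in day 6 wild-type arrays, against 9.46 and 11.26 in day 0 knockout arrays and 5.83 in the day 0 wild-type array. Alpk2, an alpha-kinase, read 5.38 and 5.65 in day 6 knockout arrays and 4.48 and 4.92 in day 6 wild-type arrays, against 8.77 and 10.32 in day 0 knockout arrays and 4.93 in the day 0 wild-type array. In each of the 5, knockout replicate 2 of day 0 was above replicate 1, by as much as 3.20 log2 units for Ankrd1. None of the 5 passed the day test over both genotypes, with limma adjusted p from 0.0698 for Klhl40 to 0.366 for Ankrd1; 34 of the 45 had an unadjusted p under 0.05 there, against 26.4% of all genes.

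MyoD (Myod1), the factor that commits cells to the muscle lineage, read 5.35 and 5.34 in day 6 knockout arrays and 5.69 and 5.01 in day 6 wild-type arrays, against 7.01 and 9.18 in day 0 knockout arrays and 5.69 in the day 0 wild-type array. Myogenin (Myog), which acts later in differentiation, reached 6.34 in knockout replicate 2 of day 0 and lay between 4.71 and 4.97 on the other 6 arrays. Perinatal myosin (Myh8), a heavy chain of newborn and regenerating fibres, read 6.04 and 5.80 in day 6 knockout arrays and 5.34 and 5.78 in day 6 wild-type arrays, against 6.32 and 6.68 in day 0 knockout arrays and 5.68 in the day 0 wild-type array. Replicate 2 of knockout day 0 was thus the highest array for Myod1, Myog and Myh8. The mean of the 5 stress and regeneration genes was 7.62 and 9.21 in knockout replicates 1 and 2 of day 0, whereas the mean of the 11 fast fibre genes was 11.98 and 11.65 on the same arrays.

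Within knockout, 32 of the 45 genes fell with day and 0 rose, while 9.07% of all genes fell and 7.24% rose; at an unadjusted p under 0.05 there were 35 of the 45, against 28.7% of all genes. The median difference of the 45 was -2.20, against 0.10 for all genes. All 6 kinases and regulators fell, as did 10 of 11 fast fibre genes (all but Myh2), 5 of 8 shared sarcomere genes, 4 of 5 calcium handling genes, 3 of 3 energy genes and 3 of 5 stress genes. Of 7 slow fibre genes, Mybpc1 fell and 6 did not pass, with a median of 0.21. Pvalb differed by -5.01 ± 0.34 (SE; limma adjusted p = 0.000516) and Mstn by -4.77 ± 0.29 (adjusted p = 0.000445). Mylk4 differed by -6.07 ± 0.55 (SE; limma adjusted p = 0.00107), a size that is not exact, since its 4.22 in knockout day 6 replicate 1 was under the background level of that array, 4.92. Xirp1 fell by 4.48 ± 0.30 and Klhl40 by 4.57 ± 0.52 (SE). Of the stress genes, Ankrd1 (-4.03 ± 0.89, SE) and Myod1 (-2.75 ± 0.63, SE) also passed.

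Within wild type, where day 0 rests on a single array, 13 of the 45 fell with day and 0 rose, while 3.61% of all genes fell and 3.51% rose. At an unadjusted p under 0.05 there were 18 of the 45, against 20.4% of all genes; the median difference was -0.72, against 0.00 for all genes. These 13 were Actn3, Casq1, Ckm, Hjv, Mstn, Myl1, Mylk4, Mylpf, Myoz1, Pvalb, Tnnc2, Tnni2 and Tnnt3, and each of them also fell within knockout. Pvalb differed by -4.61 ± 0.42 in wild type (SE; limma adjusted p = 0.00167), Mstn by -4.46 ± 0.36 (adjusted p = 0.000944) and Casq1 by -4.27 ± 0.77 (adjusted p = 0.0221), each close to its value in knockout. Another 19 genes passed in knockout and not in wild type, and 13 passed in neither. A pass in knockout without a pass in wild type does not show that the genotypes differ. That difference was tested directly.

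**Figure D3:**
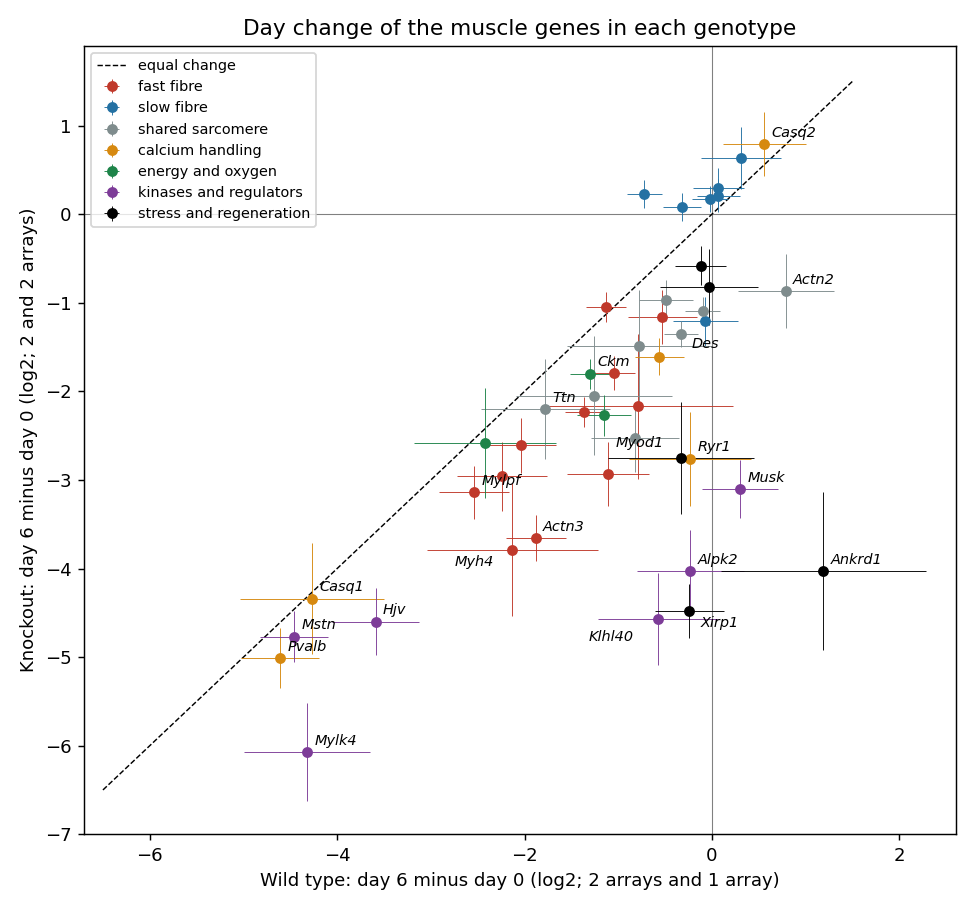
Log2 difference of day 6 minus day 0 in knockout (vertical axis) against that in wild type (horizontal axis) for the 45 muscle genes, coloured by type, with bars of 1 SE; the dashed line marks equal change. Pvalb, Casq1 and Mstn lie near the line at about -4 to -5, while Xirp1, Klhl40, Alpk2, Ankrd1 and Musk lie below it, with differences of -3.10 to -4.57 in knockout and -0.58 to 1.19 in wild type.

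The day change differed between genotypes for 3 of the 45, all with the larger fall in knockout, while 1.35% of all genes passed in that direction and 1.76% in the other. At an unadjusted p under 0.05 there were 19 of the 45, against 17.3% of all genes. They were Xirp1 (knockout change minus wild-type change -4.24 ± 0.47, SE; limma adjusted p = 0.00854), Musk (-3.41 ± 0.53, SE; adjusted p = 0.0251) and Alpk2 (-3.80 ± 0.74, SE; adjusted p = 0.0488). Klhl40 (-3.98 ± 0.82, SE; limma adjusted p = 0.0565) and Ankrd1 (-5.21 ± 1.41, SE; adjusted p = 0.115) had differences of similar size and did not pass. The sizes for Alpk2 and Ankrd1 are not exact, since both were under the background level on the wild-type day 0 array. For 4 genes that fell in both genotypes the estimates were smaller than their errors: -0.07 ± 0.99 (SE) for Casq1, -0.40 ± 0.54 for Pvalb, -0.31 ± 0.46 for Mstn and 0.08 ± 0.27 for Myl1. The estimate for Mstn is limited by wild-type day 6 values near the background level. These tests rest on the same single wild-type day 0 array. On simulated data with 200 changed genes they recovered 2.48% of 4-fold changes. In the data themselves 619 genes passed, so that rate need not hold here. Genes that did not pass may still differ. Of the 3 calls, Xirp1 passed under each of 14 alternatives, whereas Alpk2 passed under 6 and Musk under 12. The count was 1 without either knockout day 6 replicate, when 0.717% and 1.19% of all genes passed in either direction, against 3.1% with all arrays. It was 6 and 5 without knockout day 0 replicate 1 or 2 (1.43% and 1.62% of all genes), and 9 without wild-type day 6 replicate 1 (5.21% of all genes).

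At day 0, knockout was above wild type across most of the set. Of the 45 genes, 19 rose in knockout and 1 fell, while 8.53% of all genes rose and 5.86% fell. At an unadjusted p under 0.05 there were 30 of the 45, against 30.6% of all genes. The median difference of the 45 was 1.28, against -0.09 for all genes. In 37 of the 45 (82.2%) both knockout arrays lay above the wild-type array, which held for 36.0% of all genes, and in the same 37 both knockout day 0 arrays lay above every other array, which held for 16.2%. The wild-type day 0 array lay below all 4 day 6 arrays in Actn2 and Ankrd1, 2 of the 45 (4.44%), which held for 27.0% of all genes. Ankrd1 and Alpk2 rose (limma adjusted p = 0.0207 and 0.00479), but their 4.42 and 4.93 in the day 0 wild-type array were under its background level of 5.11. With that level in place of their wild-type values, Ankrd1 was at least 29.5-fold and Alpk2 at least 21.7-fold higher in knockout. Others that rose were Xirp1 (5.06 ± 0.37, SE; limma adjusted p = 0.000761), Klhl40 (4.53 ± 0.64; adjusted p = 0.00708), Ryr1 (4.06 ± 0.65; adjusted p = 0.011) and Musk (3.63 ± 0.41; adjusted p = 0.00364). Sarcomere genes that rose included Ttn (3.30 ± 0.69, SE; limma adjusted p = 0.0252), Myom1 (2.71 ± 0.47; adjusted p = 0.0141), Actn2 (2.37 ± 0.51; adjusted p = 0.0277), Des (1.27 ± 0.18; adjusted p = 0.0079) and Tpm2 (1.02 ± 0.19; adjusted p = 0.0165).

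Of the fast fibre genes, Mybpc2 (2.27), Myh1 (2.12), Actn3 (1.68), Tnnt3 (0.92) and Tnni2 (0.92) rose in knockout at day 0, and so did Mybpc1 (1.97), Pygm (1.58) and Atp2a1 (1.39). The gene that fell was Tnni1, with a log2 difference of -0.94 ± 0.19 (SE; limma adjusted p = 0.0223). Pvalb (0.52 ± 0.42, SE; limma adjusted p = 0.445), Ckm (0.47 ± 0.21; adjusted p = 0.189), Myl1 (0.17 ± 0.21; adjusted p = 0.615) and Mb (0.62 ± 0.76; adjusted p = 0.627) did not pass. A term for the arrays with Xist signal can be estimated only from the gap between the 2 wild-type day 6 arrays (0.57 for Xirp1). It takes that gap off the day 0 difference and cannot part genotype from the Xist split. With that term in the fit, Xirp1 was the 1 gene of the 45 that passed at day 0 (4.49, limma adjusted p = 0.0205). Of all genes, 3.42% passed in either direction. The 19 other genes kept their direction in that fit, among them Musk (2.80; adjusted p = 0.0514), Ryr1 (2.35; adjusted p = 0.0846) and Ttn (1.40; adjusted p = 0.171). Without knockout day 0 replicate 1, 10 of the 45 passed (6.21% of all genes, against 20 of the 45 and 14.4% of all genes with all arrays). This comparison and the day change within knockout share the knockout day 0 arrays and are not independent.

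Markers of some other cell types also differed between genotypes at day 0, where 8.53% of all genes rose in knockout and 5.86% fell. Of 8 endothelial genes, Pecam1, Cdh5 and Cldn5 were higher in knockout and 0 lower, with a median difference of 1.26, beside 1.28 for the 45 muscle genes. Of 8 fibroblast genes, Col1a1, Col1a2 and Pdgfra were higher and Fap lower, with a median of 1.09. Col1a1, a chain of type I collagen, read 12.86 and 12.88 in knockout at day 0, against 10.27 in wild type. Of 10 keratinocyte genes, Col17a1 and Itga6 were higher (median 0.62). Only Synpo2 of 10 smooth muscle genes (median 0.72) and Lep of 11 adipocyte genes (median 0.55) were higher, which is near the share of all genes. None of 10 cardiac genes passed (median -0.24). The part of these tissue components in the day 0 difference of the muscle genes was not tested.

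At day 6, 0 of the 45 genes passed between knockout and wild type, as did 0.0% of all genes. At an unadjusted p under 0.05 there were 8 of the 45, against 5.93% of all genes, and the lowest limma adjusted p was 0.801. The median difference was 0.34, against 0.00 for all genes. Both knockout arrays nevertheless lay above both wild-type arrays in 20 of the 45 (44.4%), which held for 15.9% of all genes. Among the wide gaps were those of Ttn (2.88 ± 0.56, SE), Neb (2.14 ± 0.63), Myom2 (1.56 ± 0.67), Ryr1 (1.53 ± 0.53) and Myh1 (1.49 ± 0.30). Wild-type replicate 1, an array with Xist signal, was the lowest of the 4 day 6 arrays in 30 of the 45 genes (66.7%), which held for 29.3% of all genes. Without it the median difference of the 45 was 0.11 and 0 passed, and the gaps were 1.93 in Ttn, 1.03 in Neb, 0.40 in Myom2, 0.67 in Ryr1 and 1.03 in Myh1. Without wild-type replicate 2 the median was 0.61. The gaps were then 3.83 in Ttn, 3.24 in Neb, 2.72 in Myom2, 2.38 in Ryr1 and 1.95 in Myh1. The wild-type day 6 array left has Xist signal, so that fit cannot part genotype from the Xist split.

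Over both days, 0 of the 45 passed between genotypes, as did 0.0% of all genes, with a lowest limma adjusted p of 0.239. At an unadjusted p under 0.05 there were 21 of the 45, against 18.7% of all genes. The median difference was 0.75, against -0.04 for all genes. Ttn (3.05 ± 0.44, SE), Ryr1 (2.54 ± 0.62) and Neb (2.42 ± 0.50) were among the highest estimates, as was Xirp1 (2.52 ± 0.83). Leaving out wild-type day 6 replicate 2 leaves only wild-type arrays with Xist signal. That fit cannot part genotype from the Xist split on either day.

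Other genes of skeletal muscle outside the set were read from lists chosen for their known roles. Earlier results of these data were known at that choice, so the lists are no independent check. Of all genes, 5.62% fell with day and 5.85% rose. Over both genotypes, 10 of 23 other sarcomere genes fell with day and 0 rose, with Smpx at -3.74 ± 0.34 (SE; limma adjusted p = 0.00212), Smyd1 at -2.78 ± 0.34 (adjusted p = 0.00542) and Lmod3, which builds thin filaments, at -3.25 ± 0.45 (adjusted p = 0.00823). Of 17 other genes of calcium and excitation, 10 fell and 0 rose, among them triadin (Trdn, -1.96 ± 0.22, SE), the SERCA inhibitor myoregulin (Mrln, -1.49 ± 0.17) and sarcalumenin (Srl, -2.48 ± 0.37). Of 15 other genes of muscle metabolism, 11 fell and 0 rose, with Pgam2 at -3.85 ± 0.33, Cox7a1 at -3.78 ± 0.35 and Eno3 at -1.71 ± 0.17 (SE). The medians of the 3 lists were -1.29, -1.59 and -2.02, against 0.06 for all genes.

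Genes of the neuromuscular junction and of the myogenic lineage were read too, beside the 5.62% of all genes that fell with day. Of 10 junction genes, Lrp4, the co-receptor of Musk, fell (-0.82 ± 0.20, SE; limma adjusted p = 0.0442) and 9 did not pass, with Ache at -1.62 ± 0.42 (adjusted p = 0.0535). Of 11 other myogenic genes, Myf6 fell by 3.05 ± 0.33 and Mef2c by 2.21 ± 0.37 (SE; limma adjusted p = 0.00358 and 0.0143), and 9 did not pass. The satellite cell markers Pax7 and Myf5 did not pass, with 5.22 to 5.83 for Pax7 and 3.94 to 4.60 for Myf5 over all 7 arrays. At day 0, knockout was above wild type for 6 of the 10 junction genes (Ache, Chrnb1, Dok7, Rapsn, Chrna1 and Lrp4), 14 of 23 sarcomere genes, 10 of 17 calcium genes, 8 of 15 metabolic genes and 4 of 11 myogenic genes, while 8.53% of all genes rose. Chrnb1, a subunit of the acetylcholine receptor, read 7.35 and 7.07 in knockout at day 0, against 5.16 in wild type.

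**Figure D4:**
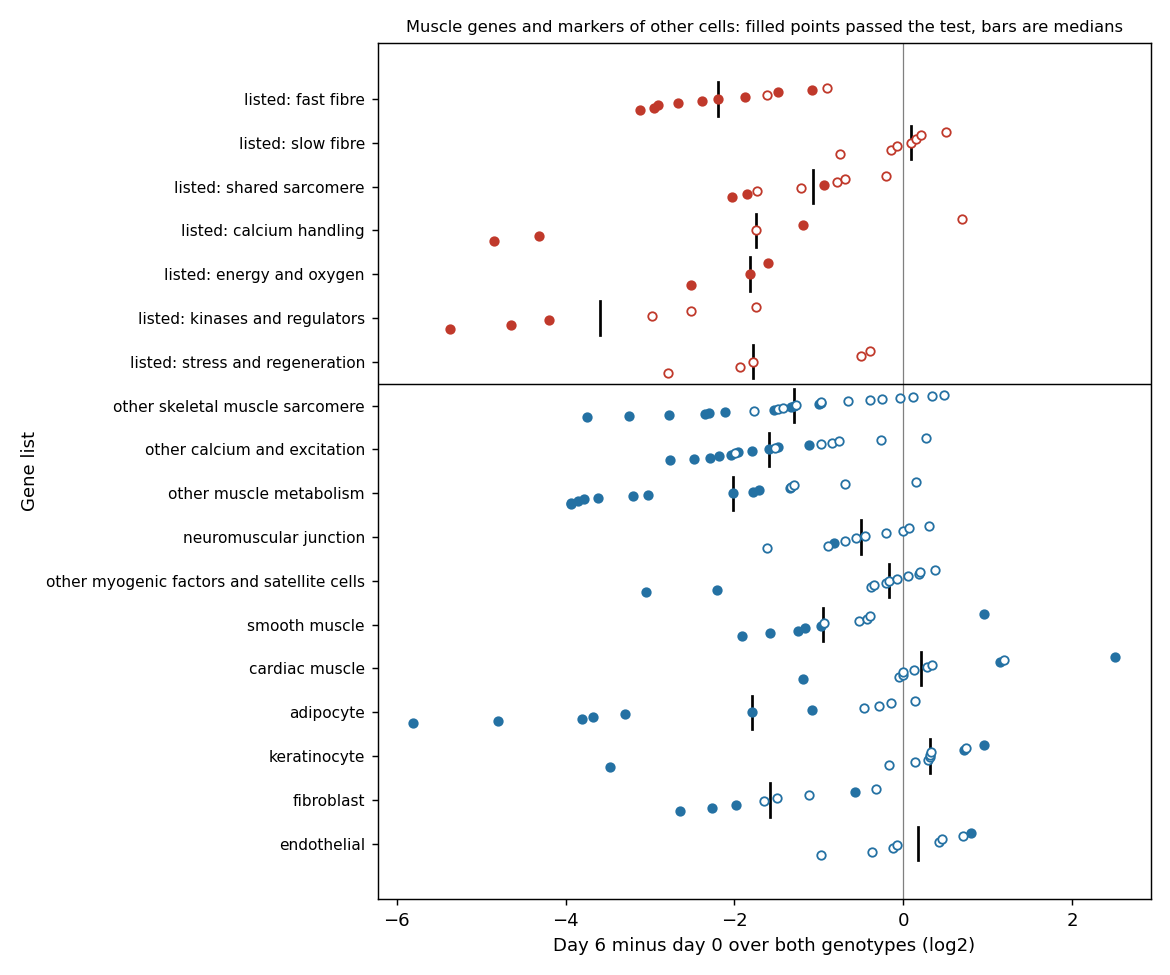
Log2 difference of day 6 minus day 0 over both genotypes (horizontal axis) for each gene of the 7 types of the set (upper part, red) and of 11 lists of other genes (lower part, blue); filled points passed the limma test and upright bars are medians. The other muscle lists of sarcomere, calcium and metabolism have medians of -1.29, -1.59 and -2.02, and the adipocyte list has a median of -1.79.

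Markers of some other cell types moved with day as well, while 5.62% of all genes fell and 5.85% rose. Of 11 adipocyte genes, 7 fell and 0 rose, with Lep at -5.81 ± 0.26 (SE; limma adjusted p = 0.000188), Adipoq at -4.80 ± 0.42 (adjusted p = 0.00196) and Retn at -3.80 ± 0.40 (adjusted p = 0.00355). Lep read 4.18 to 4.48 on the day 6 arrays, under the background level of each, so the size of its fall is not exact. The mean log2 value of the adipocyte list was 7.17 to 7.87 on the day 6 arrays, against 9.53 to 10.21 on the day 0 arrays, and that of the 45 muscle genes was 7.17 to 8.09, against 8.57 to 10.20. Of 8 fibroblast genes, 4 fell and 0 rose, with Dpt at -1.98 ± 0.21, Fap at -2.65 ± 0.35 and Dcn at -0.57 ± 0.11 (SE). The size for Fap is not exact, since it was under the background level on every day 6 array but knockout replicate 2 (5.22). The keratinocyte list had mean values of 10.99 to 11.63 at day 6, against 10.93 to 11.82 at day 0, with Dsg3 (0.96 ± 0.13, SE) and Krt14 (0.72 ± 0.15) higher and Krt15 (-3.47 ± 0.30) lower at day 6. Of 8 endothelial genes, Emcn rose (0.80 ± 0.14, SE) and 0 fell. The part of these tissue components in the muscle result was not tested. Cardiac myosin Myh6 read 4.30 to 4.55, under the background level on every array.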

How the data were processed

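RNA of 7 samples was hybridised to Affymetrix Mouse Gene 1.0 ST arrays after extraction with an RNeasy kit and labelling with biotin, per the labels' protocols. As deposited, the values are on a log2 scale; per the submitters' processing notes, R 2.11.1 and RMA were used. No source states the log base, which was taken from the range of the values (2.37 to 13.38). RMA corrects background, equalises the distributions of the arrays and summarises probes, which compresses low values and understates changes of weak genes. Which arrays shared a batch, and the settings of RMA, are not given in the sources used here. Medians over all probe sets were 5.61 to 5.79, and the number of arrays limits the precision.

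The table held 34760 probe sets, of which the platform annotation gave 1 symbol to 21640, several to 1321 and none to 11799. Each gene was represented by a probe set naming no other gene, the one of highest mean where there were several, which gave 19937 genes; 19855 matched RefSeq (GRCm38.p6) by identifier, and 0 symbols changed.

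Tests were two-sided and used lmFit and eBayes of limma 3.58.1 (R 4.3.3); p was adjusted over the 19937 genes by Benjamini and Hochberg's method, with 0.05 as the threshold. An additive fit of all 7 arrays gave the day change over both genotypes and the genotype difference over both days. The 5 other comparisons came from a fit of 4 group means, where the error of the single wild-type day 0 array is that of the replicated groups. The fits were tested on simulated data, with 200 of the 19937 genes changed in each run and noise drawn independently for each gene and array. In the data themselves 2286 genes passed for day over both genotypes and 2869 for genotype at day 0. With more genes passing the adjustment is less strict, so the recovery rates need not hold for these data. A 4-fold change was recovered in 90.64% of cases for day over both genotypes and 72.84% within knockout. For day within wild type, genotype at day 0 and the difference in day change it was 53.32%, 51.32% and 2.48%. A 2-fold change was recovered there in 1.4%, 1.2% and 0.0% of cases. Genes that did not pass in those comparisons are therefore not shown to be unchanged. Alternatives covered the filter on low values, the scaling, the choice of probe sets, limma's options, the arrays with Xist signal, the replicate number as a block and leaving out each array.

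Every member may be named. Values per array are given for the 3 genes of each type with the smallest p for day, for those past the threshold in a genotype comparison, and for those whose genotypes do not overlap on both days; further members were given in full after their values were seen. Of each other list up to 3 genes with the smallest p for day are named. Genes named beyond that were chosen after their values were seen. They are Pax7, Myf5, Ache, Myh6, Xist, and the junction genes and markers of other cell types named at day 0. The members and lists were chosen with earlier results of these data known. A few listed genes are not reported here.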

Additional observations from a re-analysis of the deposited data

Results flagged for a closer look

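Over the 4 day 6 arrays, 3 of the muscle genes had 1 array whose gap to its nearest neighbour, as a share of the whole range, was above Dixon's 95% critical value; chance gives this in about 1 in 20 groups. Actn2 read 9.69 in wild-type replicate 1, and between 11.00 and 11.23 on the other 3 arrays. Myom2 read 6.23 in the same array, and between 8.55 and 8.99 on the others. Mylk4 read 5.01 in knockout replicate 2, and between 4.08 and 4.22 on the others.

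The day change of 3 genes differed between genotypes by the limma interaction test. Knockout change minus wild-type change was -4.24 for Xirp1, -3.41 for Musk and -3.80 for Alpk2. In each, the gene fell within knockout, and both knockout day 0 arrays lay above the day 0 wild-type array. The wild-type side of each difference rests on the single day 0 array, which is also an array with Xist signal, and genotype cannot be told apart from what is particular to that array.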

How the results depend on the processing

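Like the share of all genes past the threshold, the number of muscle genes past it changed with the arrays used. For day over both genotypes it was 36 without the arrays with Xist signal and 14 to 32 on leaving out each array. For genotype at day 0 it was 1 with a term for the arrays with Xist signal and 10 to 27 on leaving out each array; for genotype at day 6 it was 0 to 2, and over both days 0 to 10. For the difference in day change it was 7 with limma's trend and robust options and 1 to 9 on leaving out each array. The day change within knockout gave 23 to 36 and within wild type 10 to 15. The day estimate of Tnni1 turned to 0.23 and that of Tnnt1 to 0.08 without the arrays with Xist signal or without the wild-type day 0 array alone, and that of Actn2 to 0.02 without knockout day 6 replicate 1. On leaving out each array these estimates ran from -0.29 to 0.23 for Tnni1, -0.17 to 0.08 for Tnnt1 and -0.87 to 0.02 for Actn2; these 3 did not pass in the first place. The cause was not tested. On leaving out each array the median difference ran from -2.20 to -1.47 for day over both genotypes, -2.36 to -2.01 in knockout, -1.08 to -0.31 in wild type, 0.11 to 0.61 for genotype at day 6, 1.26 to 1.42 at day 0, 0.34 to 1.05 over both days, and -1.12 to -0.39 for the difference in day change. With the replicate number as a block, the counts were 21, 31, 13, 0, 20, 0 and 4 in the order day over both genotypes, in knockout, in wild type, genotype at day 6, at day 0, over both days, and the difference. Deviations from the group means were correlated between the replicate 1 arrays of 2 pairs of groups. The correlation was 0.0862 for knockout day 6 with knockout day 0 and 0.227 for knockout day 6 with wild type day 6. This does not establish a pairing. Without the wild-type day 0 array, or both arrays with Xist signal, the comparisons that need that group could not be made. Weak signal limits the slow fibre genes.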

Other observations

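Muscle genes that are not of the skeletal programme gave mixed values, while 5.62% of all genes fell with day and 5.85% rose. Tnnt2, the cardiac and embryonic troponin T, read 9.42 and 9.25 in day 6 knockout arrays and 9.53 and 9.77 in day 6 wild-type arrays, against 6.98 and 6.86 in day 0 knockout arrays and 6.99 in the day 0 wild-type array. All day 6 arrays lay above all day 0 arrays, and the difference was 2.51 ± 0.13 (SE; limma adjusted p = 0.000327), opposite in sign to those of fast troponin T. Myl7, the atrial regulatory light chain, rose by 1.14 ± 0.15 (SE; limma adjusted p = 0.00609), and Myl4, the atrial and embryonic light chain, fell by 1.19 ± 0.25 (SE; limma adjusted p = 0.0281). The size for Myl7 is not exact, since its day 0 values of 4.50 to 4.78 were under the background level of each array. The 7 other cardiac genes did not pass. Of 10 smooth muscle genes, 5 fell with day and 1 rose, with Cnn1 at -1.91 ± 0.25, Tagln at -1.17 ± 0.22 and Smtn at 0.95 ± 0.17 (SE).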
